A study of Mus musculus with 12 samples.

Results

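The 10 genes described here are Trp53, which encodes the transcription factor p53, and 9 genes known as its transcriptional targets, namely Cdkn1a, Mdm2, Bbc3, Zmat3, Perp, Fas, Ccng1, Phlda3 and Trp53inp1. They were chosen by symbol, and all 10 were found among the 32698 gene rows of the count table. RNA had been sequenced in 12 libraries, 3 in each of 4 groups: CD4+ T cells lacking Keap1 (Keap1 knockout, KKO) after 24 h of activation, wild-type (WT) cells after 24 h, KKO cells after 48 h and WT cells after 48 h. The cells of all 4 groups were naive mouse CD4+ T cells stimulated in vitro with anti-CD3 plus anti-CD28 antibody, so the groups share that treatment, and resting cells were not analysed here. The Keap1 allele, what drove its deletion, the strain and the age of the mice are not given in the sources used here. Which animals or cultures the 3 libraries of a group came from is not stated in the labels, so p-values measure only the spread between these libraries, which may be technical in part. The sex-linked transcripts given below show that each group held cells of more than 1 animal.

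p53 is a transcription factor that is kept low by Mdm2, a ubiquitin ligase that it induces itself. Once stabilised by DNA damage or other stress, p53 raises genes that halt the cell cycle (Cdkn1a), promote death (Bbc3, Perp, Fas) or dampen growth signals (Phlda3), and it is known to restrain the proliferation of activated T cells. Keap1 is the adaptor through which a ubiquitin ligase degrades Nrf2, the activator of antioxidant genes, so cells without Keap1 accumulate Nrf2.

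p53 binds a 20-base element made of 2 copies of a motif of 10 bases, each with a C and a G at fixed positions in its core. The 250 bases before each RefSeq transcription start were searched for the p53 response element, with no spacer and at most 3 mismatches. The C and the G of both cores had to match, while the bases between them could differ, as they do in Ccng1. The element is its own reverse complement, so a single strand covers both. RefSeq promoters (GRCm38.p6) were at hand for 7 of the 10 genes (Trp53, Cdkn1a, Mdm2, Bbc3, Fas, Ccng1 and Phlda3). Of these 7 genes, 4 had a match, against 1.358% of all 27025 genes with a promoter of the same length. The 4 windows are shown because they hold the matches, in capitals, with 5 bases on either side, 5′ to 3′ on the strand of the gene:
Cdkn1a: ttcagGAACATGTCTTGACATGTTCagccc
Ccng1: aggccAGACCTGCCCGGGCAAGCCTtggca
Bbc3: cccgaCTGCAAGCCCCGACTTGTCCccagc
Trp53: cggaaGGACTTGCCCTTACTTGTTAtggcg

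The Cdkn1a window lies at chr17:29090923-29090952 (plus strand), and its match ends 32 bases before the first RefSeq start of the gene. The further RefSeq start of Cdkn1a had no match in the 250 bases before it. The Ccng1 window lies at chr11:40755457-40755486 (minus strand), 176 bases before the start. Both of these differ from the full element at 1 position. The Bbc3 window at chr7:16309481-16309510 (plus strand) and the Trp53 window at chr11:69580279-69580308 (plus strand) each differ at 3 positions, and lie 78 and 56 bases before their starts. For Bbc3 this is the first of its RefSeq starts, and the further ones had no match. Of the 250 bases upstream of Trp53, 147 lie in exons of its neighbour Wrap53. The stricter pair CATGNNNNNNCATG, which lies within the element, was found among these 7 genes in Cdkn1a alone, against 0.57% of all genes. The core of the antioxidant response element that Nrf2 binds, TGACNNNGC on either strand, was found in Trp53 alone, against 11.515% of all genes. A match describes the letters of this window and shows no binding, and the windows hold none of the intronic elements known for some of these genes.

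Keap1, the targeted gene, was lower in all KKO libraries, at 15.7 to 17.5 CPM in KKO against 106 to 109 CPM in WT at 24 h and 20.2 to 22.5 CPM in KKO against 122 to 132 CPM in WT at 48 h (CPM, counts per M (mega) of TMM-scaled library total). Libraries held 17.8 to 32.6 M counts. The 8 T cell markers summed to 2626 to 2702 CPM in KKO against 2790 to 2896 CPM in WT at 24 h, with no overlap, and to 2551 to 2880 CPM in KKO against 2537 to 2708 CPM in WT at 48 h. At 24 h, 7 of these 8 had negative log2 fold changes, 5 had an unadjusted p under 0.05 and edgeR called 0. Of all tested genes, 11.2% had an unadjusted p under 0.05 there and edgeR called 2.33%. The summed level of 10 B cell markers was 53.2 to 72.2 CPM in KKO against 26.2 to 33.0 CPM in WT at 24 h, and 54.9 to 83.7 CPM in KKO against 26.9 to 38.8 CPM in WT at 48 h, and none of the 10 was at 0 in any group. The 3 gamma delta T cell markers summed to 5.58 to 8.26 CPM in KKO against 3.89 to 4.10 CPM in WT at 24 h and to 5.77 to 10.7 CPM in KKO against 3.01 to 4.32 CPM in WT at 48 h. The 6 CD8 and NK cell markers summed to 11.7 to 12.3 CPM in KKO against 7.92 to 9.39 CPM in WT at 24 h, and to 13.6 to 14.8 CPM in KKO against 8.84 to 10.9 CPM in WT at 48 h. The 9 macrophage and dendritic cell markers summed to 0.393 to 1.52 CPM over all libraries, with Fcgr1 and Clec9a at 0 in every group. Sex-linked transcripts differed between libraries of a group. At both times Xist was found in WT replicates 1 and 2 and in KKO replicate 2, and Y-linked transcripts in WT replicate 3. In KKO, Y-linked transcripts without Xist marked replicate 3 at 24 h and replicate 1 at 48 h. The other 2 KKO libraries carried both kinds, with Xist at 76.2 and Y-linked transcripts at 124.9 CPM in replicate 1 at 24 h, and 104.9 and 149.4 CPM in replicate 3 at 48 h. In KKO the library with both kinds was thus replicate 1 at 24 h and replicate 3 at 48 h, and that with Y-linked transcripts alone was replicate 3 at 24 h and replicate 1 at 48 h, so whether equal replicate numbers in KKO mark the same source is not known. Results of the 10 genes and counts of the lists are also given without these 2 mixed libraries where that ends a call. KKO replicate 2 at 48 h stood apart from its group, with Spearman correlations of 0.989 and 0.992 to the other 2 libraries, which correlated at 0.997 with each other.

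Between KKO and WT cells, the p53 targets did not move in a single direction. At 24 h, 2 of the 10 genes, Bbc3 and Zmat3, fell in KKO and 0 rose. Leaving out 1 library ended the call of Bbc3 in 5 and that of Zmat3 in 6 of 12 fits. At 48 h, Cdkn1a rose in KKO, by 1.89-fold, while Perp, Fas and Phlda3 fell. Of the 12 fits, 1 ended the call of Cdkn1a at 48 h, 4 that of Phlda3 and 0 those of Perp and Fas. Perp was the 1 gene called for a difference of its KKO effect between the times. That call was lost in 10 of the 12 fits that left out 1 library. A gene was called at an adjusted p under 0.05 in edgeR's quasi-likelihood test, with Benjamini-Hochberg adjustment over all 13196 tested genes; every adjusted p below comes from that test. All 10 genes passed the filter on low counts. In bulk RNA, fewer cells of a type and less RNA per cell cannot be told apart. The summed B cell, gamma delta T cell, and CD8 and NK cell markers given above were higher in KKO at both times, and the summed T cell markers lower in KKO at 24 h. Of 9 tested B cell markers, 5 were called higher at 24 h and 8 at 48 h, beside 1.89% and 12.4% of all tested genes. Cd79b, Blnk, Cd79a and Cd22 lost the call at 24 h without the 2 mixed libraries (adjusted p from 0.0803 to 0.130). Of 3 gamma delta T cell markers, 1 and 2 were called higher, and of 4 tested CD8 and NK cell markers 0 and 2. Without the mixed libraries Trdc at 24 h and Tcrg-C1, Cd8a and Cd8b1 at 48 h lost theirs (0.0765 to 0.210). Cd8b1 made up most of the CD8 and NK cell sum at 48 h, with means of 10.8 CPM in KKO and 7.78 CPM in WT. Of the 4 tested CD8 and NK cell markers, 1 had a negative log2 fold change at 48 h. The part of all these marker lists in the results was not tested.

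The background differed strongly between the times. At 24 h, 2.33% of all tested genes were called (1.89% higher and 0.432% lower), and at 48 h 24.3% (12.4% higher and 11.9% lower). The 2 calls at 24 h were both on the side with the lower background, and DESeq2 and limma-voom also called 2 genes lower and 0 higher. At an unadjusted p under 0.05, 5 of the 10 genes passed at 24 h, all of them lower in KKO, against 11.2% of all genes in either direction. All KKO libraries lay below all WT libraries at 24 h for 5 genes (Bbc3, Zmat3, Ccng1, Phlda3 and Trp53inp1), against 9.47% of all genes, and above them for 2 (Cdkn1a and Perp), against 9.91%. At 48 h, the KKO libraries lay above all WT libraries for Cdkn1a (17.1% of all genes) and below them for Perp, Fas and Phlda3 (16.2%). The median log2 fold change of the 10 genes was -0.12 at 24 h and -0.04 at 48 h, beside medians of -0.0040 and -0.0042 over all tested genes. Without the 2 mixed libraries 0 of the 10 genes were called at 24 h and 2 at 48 h (Perp and Fas), beside 0.799% and 10.4% of all genes. With 1 library left out, the share of all genes called ran from 0.983% to 3.73% at 24 h and from 10.4% to 39.6% at 48 h.

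**Figure D1:**
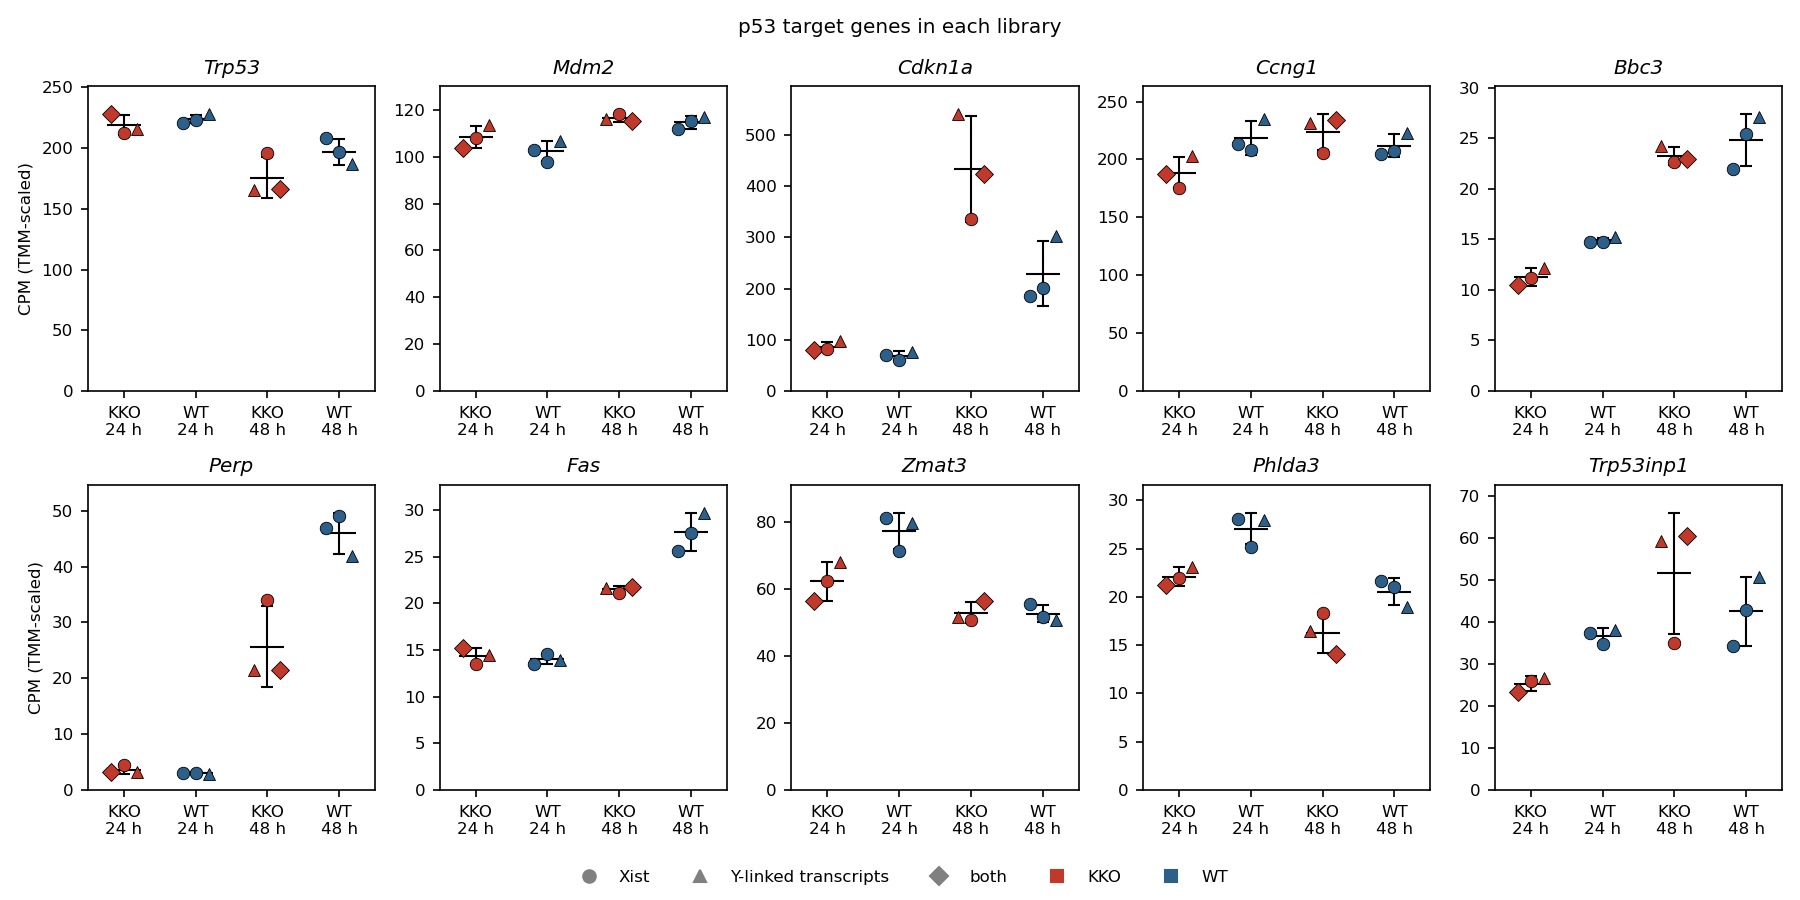
Level of each gene (CPM, linear axis) in every library, with KKO left of WT at 24 h and at 48 h; the shape of a point gives the sex-linked transcripts of the library, and bars give the mean and SD of 3 libraries. Cdkn1a separates the groups at 48 h, with KKO libraries from 335 to 541 CPM and WT libraries from 185.5 to 302 CPM, and Perp separates them the other way.

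Trp53 and its inhibitor Mdm2 were measured at nearly equal levels in both genotypes at 24 h. Trp53 had 228, 212 and 216 CPM in KKO against 221, 223 and 228 CPM in WT, and the groups overlapped. Its log2 fold change was -0.03 (95% interval -0.18 to 0.11, adjusted p = 0.970). At 48 h, Trp53 had 166, 196 and 166 CPM in KKO against 208, 197 and 187 CPM in WT, with KKO replicate 2 above WT replicate 3. That difference of -0.17 on the log2 scale (interval -0.31 to -0.02) was not called at an adjusted p of 0.0941; without KKO replicate 2 at 48 h, it was -0.26 and was called (adjusted p = 0.00133).

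Mdm2, the ubiquitin ligase that marks p53 for degradation, had 104, 108 and 113 CPM in KKO against 103, 97.7 and 106.5 CPM in WT at 24 h. At 48 h it had 116, 118 and 115 CPM in KKO against 112, 115 and 117 CPM in WT. The groups overlapped at both times, and the intervals of the log2 fold change ran from -0.03 to 0.19 at 24 h and from -0.09 to 0.13 at 48 h. These are the narrowest intervals of the 10 genes. The Mdm2 difference at 48 h, 0.02, turned to -0.0032 without KKO replicate 2 at 48 h.

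Cdkn1a, which encodes the cyclin-dependent kinase inhibitor p21, gave the largest rise. At 24 h it had 80.8, 81.3 and 96.6 CPM in KKO against 70.7, 59.8 and 76.7 CPM in WT. The groups did not overlap, yet the difference of 0.32 ± 0.21 (log2, SE) was not called (adjusted p = 0.715). At 48 h it had 541, 335 and 424 CPM in KKO against 185.5, 200.4 and 302 CPM in WT, and again every KKO library was above every WT library. The rise at 48 h was 0.92 ± 0.21 on the log2 scale (interval 0.46 to 1.38, adjusted p = 0.0114). Without KKO replicate 1 at 48 h it was 0.73 (adjusted p = 0.0556), and without the 2 mixed libraries 0.94 (adjusted p = 0.0544). The effect at 48 h exceeded that at 24 h by 0.60 (interval -0.06 to 1.26), which was not called (adjusted p = 0.262). Cdkn1a shares 273 of its exon bases, 7.684%, with AC167363.2 on the opposite strand, and whether the counting used strand is not given in the sources used here.

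Within each genotype at 48 h, Cdkn1a was higher in the libraries that held Y-linked transcripts. KKO replicates 1 and 3, with 180.4 and 149.4 CPM of Y-linked transcripts, had 541 and 424 CPM of Cdkn1a, against 335 CPM in KKO replicate 2, with 2.83 CPM of Y-linked transcripts. In WT, replicate 3 had 302 CPM, and replicates 1 and 2, whose Y-linked transcripts were below 1 CPM, had 185.5 and 200.4 CPM. Each contrast rests on 1 library, KKO replicate 2, which stood apart from its group, and WT replicate 3. At 24 h KKO replicate 1, with 124.9 CPM of Y-linked transcripts, had 80.8 CPM of Cdkn1a, against 81.3 CPM in KKO replicate 2, which held Xist. Replicate 3 of KKO and of WT, with Y-linked transcripts alone, had the most at 24 h (96.6 and 76.7 CPM). The part of sex was not tested. With the Y-linked share as a covariate the rise at 48 h was 0.76 (adjusted p = 0.000357).

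**Figure D2:**
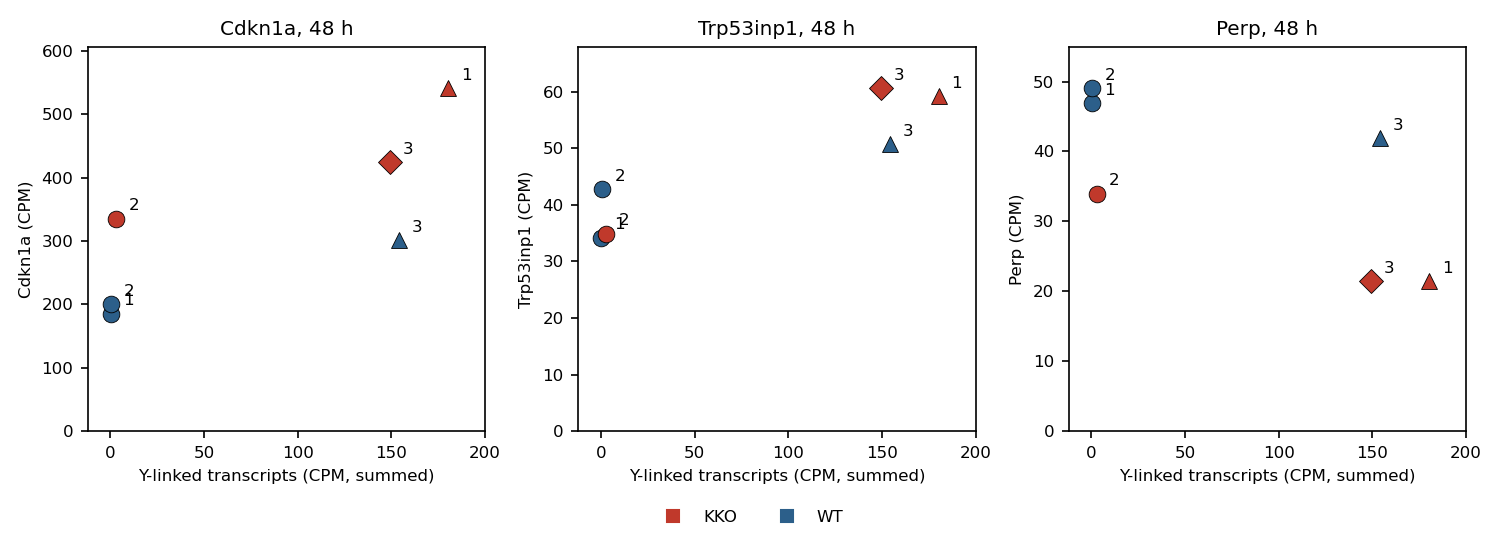
Cdkn1a, Trp53inp1 and Perp (CPM) against the summed Y-linked transcripts (CPM) in the 6 libraries at 48 h, numbered by replicate; red is KKO, blue is WT, circles held Xist, triangles Y-linked transcripts and diamonds both. Cdkn1a and Trp53inp1 were higher, and Perp lower, in the libraries with 149 to 180 CPM of Y-linked transcripts within each genotype.

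Ccng1 encodes cyclin G1, a p53 target that recruits phosphatase PP2A to Mdm2. At 24 h it had 188, 175 and 203 CPM in KKO against 213, 208 and 235 CPM in WT, so the highest KKO library was just below the lowest WT library. The difference of -0.21 (interval -0.37 to -0.06) was not called (adjusted p = 0.2046), but was called with the Y-linked share as a covariate (-0.26, adjusted p = 0.00677). At 48 h the groups overlapped, at 231.5, 206 and 234 CPM in KKO against 205.1, 207 and 223 CPM in WT (log2 fold change 0.08, interval -0.08 to 0.24).

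Of the 3 targets that promote cell death, Bbc3 was lower in KKO at 24 h, and Perp and Fas at 48 h. Bbc3 encodes Puma, which binds and blocks the survival proteins of the BCL2 family. It had 10.5, 11.2 and 12.2 CPM in KKO against 14.7, 14.8 and 15.2 CPM in WT at 24 h, with no overlap. It fell 1.32-fold (log2 fold change -0.40 ± 0.09, SE; adjusted p = 0.0268). Leaving out 1 library ended the call for WT replicates 1, 2 and 3 at 24 h (adjusted p = 0.0724, 0.0990 and 0.114) and KKO replicates 1 and 2 at 24 h (0.150 and 0.0668), and so did leaving out the 2 mixed libraries (-0.35, adjusted p = 0.196). At 48 h Bbc3 had 24.3, 22.6 and 22.9 CPM in KKO against 22.0, 25.4 and 27.1 CPM in WT, and the groups overlapped (log2 fold change -0.09, interval -0.28 to 0.09). The difference between the effects, 0.31, was not called (adjusted p = 0.158).

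Perp encodes a tetraspan membrane protein of desmosomes that p53 induces during apoptosis. At 24 h it was low, at 3.22, 4.56 and 3.23 CPM in KKO against 3.07, 3.08 and 2.82 CPM in WT. The KKO libraries lay above the WT libraries, with KKO replicate 2 highest, and the difference of 0.29 ± 0.21 was not called (adjusted p = 0.763). At 48 h Perp had 21.5, 34.0 and 21.5 CPM in KKO against 46.9, 49.05 and 41.9 CPM in WT. Here the KKO libraries lay wholly below the WT libraries, with KKO replicate 2 closest to WT. The log2 fold change was -0.84 ± 0.16 (interval -1.19 to -0.50, adjusted p = 0.00285). The call of Perp held without each library in turn (adjusted p from 5.03e-06 to 0.0203), without the 2 mixed libraries (-0.73, adjusted p = 0.0242) and with the Y-linked share as a covariate (-0.72, adjusted p = 4.78e-05).

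The KKO effect on Perp at 48 h minus that at 24 h was -1.14 ± 0.27 (adjusted p = 0.0327), against 4.18% of all genes called for this difference (1.46% higher and 2.72% lower). The estimate ran from -1.40 to -0.95 without each library in turn. The call was lost, at adjusted p from 0.0549 to 0.0999, without any 1 of the 6 libraries at 24 h, of WT replicates 1 and 2 at 48 h or of KKO replicates 1 and 3 at 48 h. It was also lost without the 2 mixed libraries (-1.11, adjusted p = 0.115), with limma-voom (adjusted p = 0.0671) and without a filter on low counts (0.0692).

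Fas, the cell surface death receptor, had 15.2, 13.5 and 14.4 CPM in KKO against 13.5, 14.6 and 13.9 CPM in WT at 24 h. The groups overlapped, and the difference of 0.04 turned to -0.0049 without the 2 mixed libraries. At 48 h it had 21.7, 21.1 and 21.7 CPM in KKO against 25.6, 27.6 and 29.7 CPM in WT. The 3 KKO libraries were within 1 CPM of each other and below every WT library. The log2 fold change of -0.36 ± 0.08 (adjusted p = 0.00462), 1.28-fold lower, held without each library in turn (adjusted p from 0.00273 to 0.0203) and without the 2 mixed libraries (-0.37, adjusted p = 0.0254). The difference between the effects at 48 h and 24 h was -0.40 (interval -0.64 to -0.17) and just missed the threshold (adjusted p = 0.0529).

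**Figure D3:**
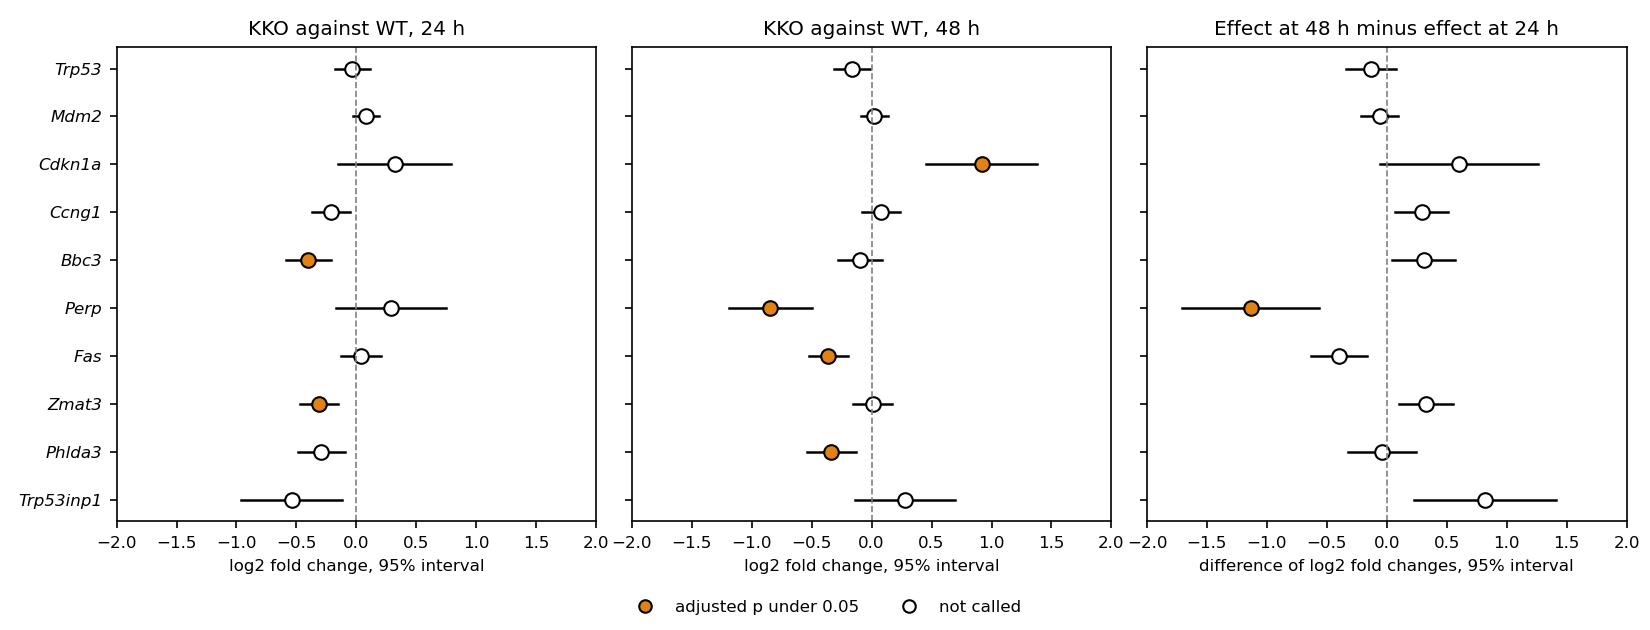
Log2 fold change of KKO against WT at 24 h (left) and 48 h (centre) and the difference between the effects (right) for each gene, with 95% intervals; filled points passed an adjusted p of 0.05. Bbc3 and Zmat3 are filled left of 0 at 24 h, Perp, Fas and Phlda3 left and Cdkn1a right of 0 at 48 h, and Perp alone is filled for the difference.

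The remaining 3 targets act on RNA, growth signalling and autophagy. Zmat3 encodes a zinc finger RNA-binding protein that alters splicing and mRNA stability. At 24 h it had 56.5, 62.5 and 68.1 CPM in KKO against 81.2, 71.3 and 79.8 CPM in WT, with no overlap. Its log2 fold change was -0.31 ± 0.07 (adjusted p = 0.0366), 1.24-fold lower. The call was lost without WT replicate 1 or 3 at 24 h (adjusted p = 0.179 and 0.185), KKO replicate 1 or 2 at 24 h (0.217 and 0.0937), WT replicate 2 or 3 at 48 h (0.0730 and 0.0553) and without the 2 mixed libraries (-0.25, adjusted p = 0.194). It was also lost in a fit of the 6 libraries at 24 h alone (adjusted p = 0.0852), with upper-quartile scaling (0.0541) and with a filter of 1 CPM in 6 libraries (0.0540). At 48 h the groups overlapped, at 51.7, 50.8 and 56.55 CPM in KKO against 55.6, 51.6 and 50.75 CPM in WT (log2 fold change 0.01, interval -0.15 to 0.17). Zmat3 was the only one of the 10 genes with expected counts that were not whole, in all 12 libraries, so some of its reads were shared with other genes.

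Phlda3 encodes a small pleckstrin homology protein that competes with Akt for membrane lipids. It had 21.2, 21.9 and 23.15 CPM in KKO against 28.1, 25.2 and 28.0 CPM in WT at 24 h, with no overlap and no call (log2 fold change -0.29, adjusted p = 0.140), but it was called in a fit of the 6 libraries at 24 h alone (adjusted p = 0.0497). At 48 h it had 16.5, 18.3 and 14.1 CPM in KKO against 21.6, 20.99 and 19.0 CPM in WT, again with no overlap. The fall at 48 h, -0.34 ± 0.10 (adjusted p = 0.0211), was close in size to the difference at 24 h, and the 2 effects differed by -0.04 (interval -0.33 to 0.24). The call at 48 h was lost without WT replicate 1 or 2 at 48 h (adjusted p = 0.0953 and 0.0827), KKO replicate 1 or 3 at 48 h (0.0644 and 0.110), without the 2 mixed libraries (-0.24, adjusted p = 0.127) and in a fit of the 6 libraries at 48 h alone (0.0840).

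Trp53inp1, whose protein acts in stress responses and autophagy, had 23.4, 25.9 and 26.7 CPM in KKO against 37.4, 34.9 and 38.1 CPM in WT at 24 h. The groups were well apart, and the log2 fold change of -0.54 was the lowest of the 10 genes, but it was not called in the fit of all 12 libraries (adjusted p = 0.257). It was called in a fit of the 6 libraries at 24 h alone (-0.53, adjusted p = 0.00252), when KKO replicate 2 of 48 h was left out (adjusted p = 0.0211) and with the Y-linked share as a covariate (-0.63, adjusted p = 0.0414). At 48 h Trp53inp1 had 59.2, 34.9 and 60.6 CPM in KKO against 34.2, 42.8 and 50.7 CPM in WT, and the groups overlapped through KKO replicate 2. The difference at 48 h was 0.28 (interval -0.14 to 0.69); without KKO replicate 2 at 48 h it was 0.48 (adjusted p = 0.00923). The effect at 48 h exceeded that at 24 h by 0.82, which was not called (adjusted p = 0.107).

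Between the times, most of the 10 genes changed in both genotypes. In KKO, 6 rose and 3 fell at 48 h relative to 24 h, against 67.8% of all genes called (34.4% higher and 33.4% lower), and in WT 5 rose and 3 fell, against 60.8% (31.0% higher and 29.7% lower). Relative to those shares more of the 10 genes rose, in both genotypes, and the 3 that fell were close to the share of all genes; these differences were not tested. Perp changed most, by 2.80 on the log2 scale in KKO (adjusted p = 4.40e-08) and 3.94 in WT (adjusted p = 2.95e-09), or 6.98-fold and 15.3-fold. Cdkn1a followed, with log2 fold changes of 2.33 in KKO and 1.73 in WT. Bbc3 rose by 1.05 in KKO and 0.74 in WT, and Fas by 0.58 in KKO and 0.98 in WT.

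Trp53 itself fell with time, with log2 fold changes of -0.32 in KKO (adjusted p = 0.000858) and -0.18 in WT (adjusted p = 0.0313). The WT call was lost without WT replicate 1, 2 or 3 at 24 h (adjusted p = 0.0720, 0.0730 and 0.0995) or WT replicate 2 or 3 at 48 h (0.0892 and 0.151). Zmat3 had -0.23 in KKO and -0.56 in WT, and Phlda3 -0.44 in KKO and -0.40 in WT; the Zmat3 call in KKO was lost without KKO replicate 3 at 24 h (adjusted p = 0.0761). Trp53inp1 and Ccng1 were called in KKO, at 1.03 and 0.25, and not in WT, at 0.21 and -0.05. The Ccng1 call in KKO was lost without the 2 mixed libraries (0.21, adjusted p = 0.0758). Mdm2 was called in WT, at 0.16, and not in KKO, at 0.10; the WT call was lost without WT replicate 2 at 24 h (adjusted p = 0.0733). The difference between KKO and WT in these time effects is the same quantity as the difference between the KKO effects at 48 h and 24 h, which was called for Perp alone.

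Per kb of merged exon (GENCODE vM21, GRCm38), the order of levels changed with time mainly through Perp and Cdkn1a. At 24 h in KKO, Trp53 (54.1 ± 2.05 CPM per kb, SD, n = 3) and Ccng1 (53.7 ± 3.91) led and did not differ beyond their spread. Cdkn1a (24.3 ± 2.54) and Mdm2 (21.3 ± 0.954) followed, and did not differ beyond their spread either. In WT at 24 h, Ccng1 (62.3 ± 4.13) stood above Trp53 (55.4 ± 0.887), and Mdm2 (20.15 ± 0.868) and Cdkn1a (19.4 ± 2.40) did not differ beyond their spread. At 48 h Cdkn1a was first in KKO (122 ± 29.1), above Ccng1 (63.7 ± 4.49) and Trp53 (43.5 ± 4.25). In WT at 48 h, Cdkn1a (64.5 ± 17.8) and Ccng1 (60.3 ± 2.82) did not differ beyond their spread. Trp53 (48.7 ± 2.66) came below Ccng1 but within the spread of Cdkn1a. Perp was lowest at 24 h, with 1.88 ± 0.393 CPM per kb in KKO and 1.53 ± 0.0753 in WT. At 48 h Perp was below Mdm2 in KKO (13.1 ± 3.70 against 22.9 ± 0.310 for Mdm2). Its spread there covered the means of Bbc3 (10.96), Phlda3 (10.45) and Fas (10.43). In WT at 48 h, Perp (23.5 ± 1.89) and Mdm2 (22.6 ± 0.526) did not differ beyond their spread. The lowest at 48 h was Zmat3, with 4.64 ± 0.271 in KKO and 4.61 ± 0.228 in WT. Spread within a group at 48 h was also uneven over the 10 genes: the coefficient of variation of CPM was 28.1% in KKO and 8.02% in WT for Perp, and 1.65% in KKO and 7.49% in WT for Fas.

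Other p53 targets moved in both directions at 48 h. Of 25 tested genes in that list, 7 rose and 4 fell in KKO, with a median log2 fold change of 0.05, beside 12.4% of all tested genes called higher and 11.9% lower. Ddit4, an inhibitor of mTORC1, had a log2 fold change of 0.86 (adjusted p = 0.0447), the growth arrest gene Gadd45a 0.67 (adjusted p = 0.00727) and the mitochondrial glutaminase gene Gls2 0.57 (adjusted p = 0.0108). At 24 h edgeR called 0 of the 25 (2.33% of all genes) and limma-voom 0, and DESeq2 called 1. The unadjusted p in edgeR was under 0.05 for 5 (11.2% of all genes). The edgeR count became 1 without KKO replicate 2 at 24 h, WT replicate 3 at 48 h or KKO replicate 1 or 3 at 48 h, and 3 when KKO replicate 2 was left out there (3.73% of all genes). Trp53i11 had the smallest p at 24 h (0.47, adjusted p = 0.0514). Without the 2 mixed libraries 1 of the 25 was called at 48 h, and the count fell to 5, 4, 3 and 4 without WT replicates 1 and 2 and KKO replicates 1 and 3 at 48 h, taken one at a time. Of all genes, 10.4% were called without the mixed libraries, and 12.7%, 12.5%, 10.4% and 12.3% in those other fits. Gls2 lost its call without KKO replicate 1 at 48 h (adjusted p = 0.0567), as did Ddit4 without that library (0.188), WT replicates 1 and 2 at 48 h (0.125 and 0.0945), KKO replicate 3 at 48 h (0.130) or KKO replicate 1 at 24 h (0.0509). Gadd45a kept its call without each of these.

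Among regulators of p53, 1 of 14 tested genes rose and 3 fell in KKO at 48 h (median -0.09), which is close to the 24.3% of all tested genes called. Hipk2, a kinase that phosphorylates p53, averaged 45.4 ± 5.76 CPM in KKO and 29.0 ± 0.950 CPM in WT (SD, n = 3 each; log2 fold change 0.65, adjusted p = 0.000445). The damage kinase genes Atm (-0.39, adjusted p = 0.0117) and Chek1 (-0.37, adjusted p = 0.00165) and the phosphatase gene Ppm1d (-0.24, adjusted p = 0.0468) fell. At 24 h edgeR called 0 of the 14 (2.33% of all genes), with 2 at an unadjusted p under 0.05 (11.2% of all genes). DESeq2 and limma-voom called 0. Chek1 had the smallest p (-0.20, adjusted p = 0.148), and 1 gene was called there without KKO replicate 2 of 48 h (3.73% of all genes). The count of 4 at 48 h became 2 without WT replicate 1, WT replicate 2 or KKO replicate 1 at 48 h (12.7%, 12.5% and 10.4% of all genes). It was 7 when KKO replicate 2 was left out there (39.6% of all genes). Atm lost its call without WT replicate 1, WT replicate 2 or KKO replicate 1 at 48 h (adjusted p = 0.0681, 0.0538 and 0.0552). Ppm1d lost it without any 1 of WT replicates 1 to 3 or KKO replicate 3 at 24 h, or WT replicates 1 to 3 or KKO replicates 1 and 3 at 48 h (adjusted p from 0.0503 to 0.185), and without the 2 mixed libraries (-0.19, adjusted p = 0.160).

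Of the G1 cyclins, their kinases and other inhibitors, 4 of 16 tested genes rose and 3 fell in KKO at 48 h (median -0.03), beside the same 12.4% higher and 11.9% lower over all genes. The kinase inhibitor gene Cdkn2d averaged 81.0 ± 17.5 CPM in KKO and 46.6 ± 8.30 CPM in WT (log2 fold change 0.80, adjusted p = 0.00570). The pocket protein gene Rbl2 (0.43, adjusted p = 0.00177), Cdk6 (0.36, adjusted p = 0.00495) and Ccnd3, which encodes cyclin D3 (0.29, adjusted p = 0.0124), also rose. At 24 h edgeR, DESeq2 and limma-voom each called 0 of the 16, with 3 at an unadjusted p under 0.05 (2.33% and 11.2% of all genes in edgeR). Cdk6 had the smallest p (0.21, adjusted p = 0.238). The count of 7 at 48 h became 3 without KKO replicate 1 (10.4% of all genes) and 12 when KKO replicate 2 was left out (39.6%). Ccnd3 lost its call without KKO replicate 1 at 48 h (adjusted p = 0.0714).

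In the Fas pathway, 1 of 10 tested genes rose and 2 fell in KKO at 48 h (median -0.07), again close to the 24.3% of all genes. The executioner caspase gene Casp6 averaged 133 ± 34.6 CPM in KKO and 48.9 ± 7.25 CPM in WT (SD, n = 3 each; log2 fold change 1.44, adjusted p = 0.00208). At 24 h edgeR called 0 of the 10 (2.33% of all genes), with 2 at an unadjusted p under 0.05 (11.2% of all genes). DESeq2 called 1 and limma-voom 0. Casp6 had the smallest p (0.87, adjusted p = 0.195). Without the 2 mixed libraries 1 of the 10 was called at 48 h, while 6 were without KKO replicate 2 at 48 h (10.4% and 39.6% of all genes). The count of 0 at 24 h became 1 without KKO replicate 2 at 24 h. Among 8 tested BCL2 relatives that Puma binds or that act beside it, 3 rose at 48 h and 0 fell (median 0.22), beside 12.4% of all genes higher. These were the survival genes Bcl2 (0.59, adjusted p = 0.0116), Bcl2l2 (0.53, adjusted p = 0.00142) and Mcl1 (0.18, adjusted p = 0.0471). At 24 h edgeR, DESeq2 and limma-voom each called 0 of the 8, with 1 at an unadjusted p under 0.05 (2.33% and 11.2% of all genes in edgeR). Bcl2l11, which encodes the death activator Bim, had the smallest p (-0.26, adjusted p = 0.224). Leaving out KKO replicate 1, KKO replicate 3 or the 2 mixed libraries turned the count of 3 at 48 h into 1 (10.4%, 12.3% and 10.4% of all genes). Each of these ended the call of Bcl2 (adjusted p = 0.0687, 0.0535 and 0.0734). The call of Mcl1 ended there too (0.175, 0.192 and 0.205), and also without WT replicate 3 or KKO replicate 1 or 3 at 24 h or any WT library at 48 h (0.0504 to 0.103).

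The 12 mitotic and late cell cycle genes that p53 is known to lower through p21 were the list with the most calls at 24 h. There, 7 rose in KKO and 0 fell, with a median of 0.39, beside 1.89% of all tested genes called higher. Ube2c, a ubiquitin-conjugating enzyme of mitosis, averaged 62.3 ± 6.52 CPM in KKO and 43.1 ± 3.69 CPM in WT (log2 fold change 0.53, adjusted p = 0.00385). The mitotic kinase gene Plk1 (0.53, adjusted p = 0.0334) and the cyclin genes Ccnb2 (0.50, adjusted p = 0.0312) and Ccnb1 (0.48, adjusted p = 0.0256) also rose. The count was 3, 3, 4, 3 and 2 without WT replicates 1, 2 and 3 and KKO replicates 1 and 3 at 24 h, taken one at a time, and 2 without the 2 mixed libraries. The shares of all genes called, in either direction, were then 1.72%, 1.03%, 1.13%, 1.31% and 0.983%, and 0.799% without the mixed libraries. Any 1 of these 5 libraries, left out, ended the call of Ccnb1 (adjusted p from 0.0738 to 0.122) and of Plk1 (0.0543 to 0.158, and 0.0508 without WT replicate 2 at 48 h), and all of them but WT replicate 3 that of Ccnb2 (0.0670 to 0.168). At 48 h 0 rose and 2 fell (11.9% of all genes fell), Ccna2 (-0.25, adjusted p = 0.0415) and Birc5 (-0.20, adjusted p = 0.0348), with a median of -0.22. Without KKO replicate 2 at 48 h 9 of the 12 fell, beside 39.6% of all genes called in either direction (2849 of 13525 lower). The count was 1 without WT replicate 2 or 3 at either time or KKO replicate 1 at 24 h, and 0 when the library left out was KKO replicate 1 or 3 or WT replicate 1 at 48 h, or KKO replicate 3 at 24 h, as it was without the 2 mixed libraries. Ccna2 held without WT replicate 1 or KKO replicate 2 at 24 h, or WT replicate 3 or KKO replicate 2 at 48 h, and lost its call in the other 8 fits (adjusted p from 0.0511 to 0.191). Birc5 lost it without KKO replicate 3 at 24 h or WT replicate 1 or 3 or KKO replicate 1 or 3 at 48 h (0.0505 to 0.197). The effect at 48 h was below that at 24 h for 7 of the 12 (2.72% of all genes), among them Ube2c (-0.76, adjusted p = 0.00486) and Plk1 (-0.75, adjusted p = 0.0252). This count became 0 without the 2 mixed libraries, 3 without KKO replicate 1 at 24 h, WT replicate 2 at 48 h or KKO replicate 3 at 48 h, 4 without WT replicate 2 or KKO replicate 3 at 24 h or WT replicate 1 at 48 h, and 11 when KKO replicate 2 of 48 h was left out. Of all genes, 0.403% were called for this difference without the mixed libraries and 23.8% without KKO replicate 2 of 48 h.

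**Figure D4:**
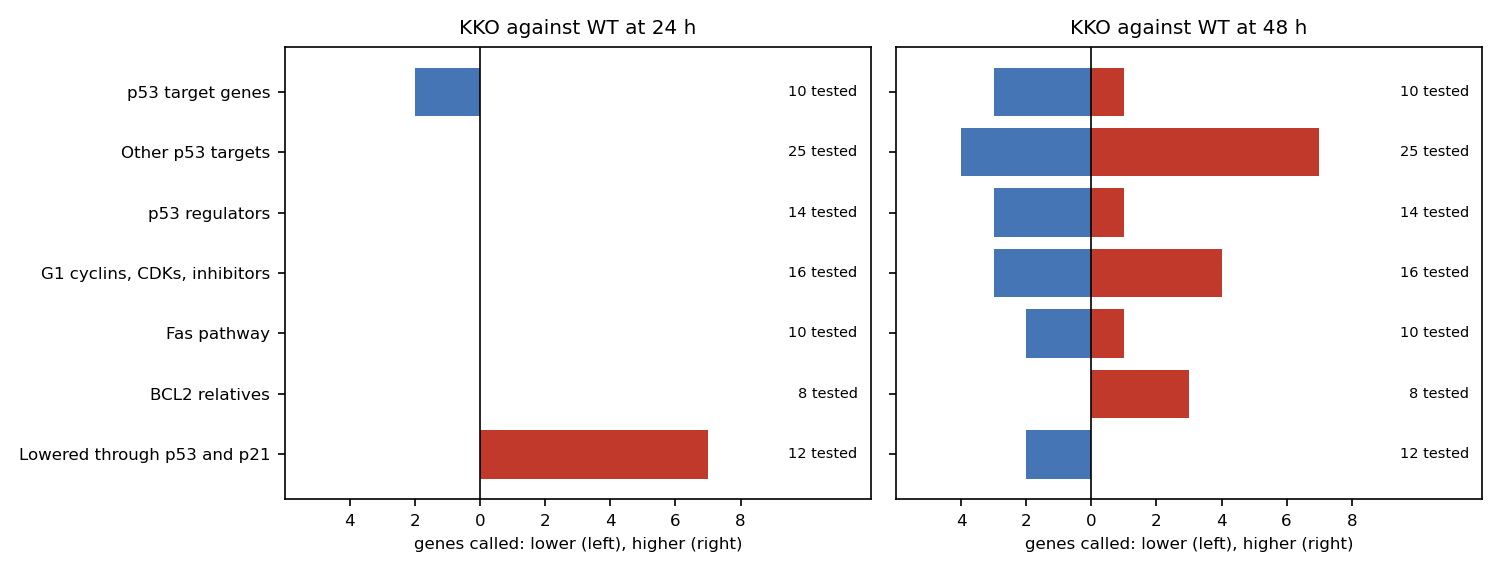
Number of genes called lower (left, blue) or higher (right, red) in KKO against WT at 24 h and at 48 h for the 10 p53 target genes and 6 related lists, with the number tested. At 24 h the bars are 2 genes lower among the 10 targets and 7 higher in the list lowered through p53 and p21; at 48 h all lists have calls, in both directions for 5 of the 7.

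The genes whose log2 CPM over the 12 libraries most resembled that of 3 of the targets were found among 10684 genes that averaged 2 CPM or more. Pearson correlations over 12 libraries, which share the 4 groups, are given as a description. For Cdkn1a they were Sema6b (0.996), Cmas (0.995) and Arhgef10 (0.995). For Trp53 they were Rbm15b (0.994), Pacsin2 (0.991) and Csk (0.990). The closest to Zmat3 were Rapgef6 (0.941), Hivep2 (0.939) and Igf1r (0.935), lower values than those for Cdkn1a or Trp53.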

How the data were processed

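The authors deposited RSEM expected counts per gene, which are estimated and not normalised. The submitters' processing notes name FastQC, RSEM and mouse build mm10; the series text names a human reference, but the gene symbols and the organism label are of mouse. The RSEM version and the gene annotation are not given in the sources used here. Another 6 columns of the table were not used, since no label describes them. The table holds 27 symbols turned into dates, which were kept but not renamed, and 1 unknown row of at most 2 counts, which was left out.

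After rounding, the expected counts entered edgeR 4.0.16 under R 4.3.3 (filterByExpr, TMM, robust quasi-likelihood F test, 2-sided), with all 12 libraries and 1 mean per group in a single fit; 13196 genes were tested. Intervals are 95% intervals of that fit. Totals of 17.8 to 32.6 M counts limit the precision of low genes such as Perp at 24 h. No 2 libraries of a group agreed within counting noise (chi-square divided by its degrees of freedom, 5.73 to 23.2), so none was counted as a repeat. The script was tested on simulated data. Gene positions and exon lengths came from GENCODE vM21 (GRCm38), and promoters from RefSeq GRCm38.p6.

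The 10 genes, the lists and the tests were chosen with earlier results of these data known, so they are no independent support for any pattern. Named were all 10 genes; from each list up to 4 called genes with the largest change in each genotype comparison (2 in the time comparisons and in the difference), or the gene with the smallest p where none was called; the 3 genes most correlated with Cdkn1a, Zmat3 and Trp53; and Keap1. A few genes that this rule names are not reported here. Same-numbered libraries of the 2 times deviated together in WT (correlations 0.126, 0.103 and 0.343, all over 0.1), and with the replicate number as a block the WT time comparison gave the same 8 calls among the 10 genes. What a number stands for is not given in the labels. The alternatives tried were DESeq2 1.42.0, upper-quartile and RLE scaling, limma-voom (limma 3.58.1), no filter or 1 CPM in 6 libraries, the 6 libraries of a comparison alone, a replicate block, the Y-linked share as a covariate, no mixed libraries, an adjusted p under 0.01, and each library left out.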

Additional observations from a re-analysis of the deposited data

Results flagged for a closer look

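The KKO effect differed between 48 h and 24 h, by the test of that difference itself, for 1 of the 10 genes and for 5 named genes of the related lists. For Perp the difference was -1.135 (log2), from -0.84 at 48 h and 0.29 at 24 h. Gadd45a had a difference of 1.126 (adjusted p = 0.0224 in edgeR's quasi-likelihood test), with 9.01 ± 0.890 CPM in KKO and 5.66 ± 0.509 CPM in WT at 48 h, and 1.29 ± 0.302 CPM in KKO and 1.755 ± 0.196 CPM in WT at 24 h (SD, n = 3 each). Hipk2 had 0.5904 (adjusted p = 0.0262) and Rbl2 0.5404 (adjusted p = 0.0175), both higher in KKO at 48 h and near WT at 24 h. Ube2c had -0.7571 (adjusted p = 0.00486) and Plk1 -0.7507 (adjusted p = 0.0252), both higher in KKO at 24 h. Leaving out 1 library in turn ended the call in 8 of 12 fits for Gadd45a (adjusted p up to 0.0689; it held without WT replicate 1 or KKO replicate 3 at 24 h, or WT replicate 3 or KKO replicate 2 at 48 h). Hipk2 also lost it in 8 (up to 0.0703; it held without KKO replicate 3 at 24 h, or WT replicate 3 or KKO replicate 1 or 2 at 48 h), as did Plk1 (up to 0.0781; it held without WT replicate 3 or KKO replicate 2 at 24 h, or WT replicate 3 or KKO replicate 2 at 48 h). Rbl2 lost it without WT replicate 2 or KKO replicate 3 at 48 h (0.0553 and 0.0573), and Ube2c in 0 of the 12 (0.000101 to 0.0199). Without the 2 mixed libraries the adjusted p was 0.124 for Gadd45a, 0.152 for Hipk2, 0.106 for Rbl2, 0.0644 for Ube2c and 0.158 for Plk1.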

How the results depend on the processing

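Counts of called genes among the 10 depended on the setting. At 24 h (2 in the fit as reported), the count was 0 at an adjusted p under 0.01, with the replicate block (Bbc3 and Zmat3 at adjusted p = 0.0704 and 0.0797) and without the 2 mixed libraries, 3 with the 6 libraries alone (Zmat3 lost, Phlda3 and Trp53inp1 gained), 1 with upper-quartile scaling and with a filter of 1 CPM in 6 libraries, 4 (all lower) with the Y-linked share as a covariate, and 0 to 3 without 1 library. At 48 h (4 in the fit as reported) it was 3 with the 6 libraries alone (Phlda3 lost), 2 at an adjusted p under 0.01 and without the 2 mixed libraries, and 2 to 6 without 1 library. For the difference of effects (1 in the fit as reported) it was 0 at an adjusted p under 0.01, with limma-voom, without a filter and without the 2 mixed libraries, 2 with RLE scaling and with the filter of 1 CPM in 6 libraries, 3 with DESeq2, 4 with the replicate block, 5 with the Y-linked share as a covariate, and 0 to 6 without 1 library, the 6 without KKO replicate 2 at 48 h. At 48 h the 6 libraries alone gave 4 calls among the 25 other p53 targets, 4 among the G1 cyclins, 1 in the Fas pathway and 0 among the 12 mitotic genes, in place of 11, 7, 3 and 2. Of all genes, 12.1% were called in that fit. The time counts stayed within 1.5 times under all alternatives run.

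The deviations of same-numbered KKO and WT libraries had correlations of both signs (-0.317, -0.00299 and 0.224 at 24 h, -0.249, 0.106 and 0.135 at 48 h). Those of the 2 times in KKO had 0.0287, 0.0852 and 0.0408. Libraries of unlike number were not compared, so whether a number marks a pair cannot be told. Signs turned for Fas at 24 h (-0.0049 without the mixed libraries), Mdm2 at 48 h (-0.0032 without KKO replicate 2 at 48 h, up to 0.031 without another library), Zmat3 at 48 h (-0.0093 without a filter, -0.038 without the mixed libraries, and between -0.038 and 0.047 without 1 library), the Phlda3 difference (0.025 without the mixed libraries, -0.15 to 0.053 without 1 library) and Ccng1 with time in WT (0.011 without WT replicate 3 at 24 h, down to -0.080 without another library); none of these 5 had been called. Over all tested genes, the count of 307 at 24 h became 107 without the mixed libraries, 524 with the 6 libraries alone, 483 with DESeq2 and 128 at an adjusted p under 0.01. The count of 3209 at 48 h became 1386 without the mixed libraries, 1536 with the 6 libraries alone, 1363 at an adjusted p under 0.01 and 5362 without KKO replicate 2. The 552 differences of effects became 1128 with DESeq2, 931 with the block, 1424 with the covariate, 54 without the mixed libraries, 85 at an adjusted p under 0.01 and 3217 without KKO replicate 2 at 48 h. The cause of these shifts was not tested.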

Other observations

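Between the times, the related lists moved in both genotypes, beside 67.8% of all genes called in KKO and 60.8% in WT. Of the 25 other p53 targets, 14 rose and 7 fell in KKO, and 12 rose and 7 fell in WT, at 48 h against 24 h. Ddit4 had log2 fold changes of 3.40 in KKO and 2.59 in WT. Of the 14 regulators of p53, 1 rose and 6 fell in KKO, and 1 rose and 7 fell in WT, with the damage kinase genes Atm (-1.09 in KKO and -0.83 in WT) and Prkdc (-0.88 in KKO and -0.71 in WT) among those that fell. The kinase inhibitor genes Cdkn2d (2.47 in KKO and 2.00 in WT) and Cdkn1b (1.90 in KKO and 1.46 in WT) rose beside Cdkn1a. Of the 12 genes lowered through p53 and p21, 9 rose and 1 fell in KKO and 11 rose and 0 fell in WT.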
